A study of Homo sapiens with 6 samples.

Results

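The genes described here encode the anaphase-promoting complex (also called the cyclosome, APC/C), taken as the rows of the gene table named ANAPC1, ANAPC4, ANAPC5, ANAPC7, ANAPC10, CDC16, CDC23, CDC26, CDC27 and FZR1, 10 of 58735 genes. All 10 were found, and 9 passed the minimum for testing of a mean of 1 FPKM over the libraries. FPKM is a read count divided by gene length and by a scaling total for each library. RNA came from TPC1 cells, a long-used line of human papillary thyroid carcinoma. In 3 libraries (si-circ_0000839) the cells had been given siRNA that targets hsa_circ_0000839, a circular RNA, and in 3 (NC) negative-control siRNA. Both groups were transfected for 60 h. The comparison asks which genes differ when this circular RNA is targeted. No row was matched to that circular RNA, and its own level was not checked here. The labels do not say whether replicates are separate cultures. The p-values therefore measure the spread between these libraries, which may be technical.

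The anaphase-promoting complex is a ubiquitin ligase that marks proteins for destruction by the proteasome, and by removing securin and the mitotic cyclins it lets chromosomes separate and cells leave mitosis. A platform of large scaffold subunits (ANAPC1, ANAPC4, ANAPC5) carries an arc of subunits built from tetratricopeptide repeats (TPR; CDC27, CDC16, CDC23, ANAPC7), with the small protein CDC26 holding CDC16 in shape. Substrates are gripped between ANAPC10 and an exchangeable coactivator, either CDC20 in mitosis or FZR1 from late mitosis through G1. CDC27 is the TPR subunit that docks the C-terminal tails of the coactivators and of ANAPC10.

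The libraries held 18399558 to 19334633 reads, recovered from the FPKM values, and 20533 to 21088 genes above 0. PAX8, a thyroid transcription factor, averaged 95.8 ± 2.21 FPKM in NC and 96.3 ± 5.26 with the siRNA (SD, n = 3). No library held a read (0 reads) of the thyroid genes NKX2-1, SLC5A5 or TSHR. The epithelial keratin KRT8 averaged 208 ± 20.4 FPKM in NC and 190 ± 11.7 with the siRNA, and CDH1 in the sense of E-cadherin had 0 reads. Of 14 markers of leukocytes, fibroblasts and endothelium only LUM reached a mean of 1 FPKM. The summed level of the 5 fibroblast markers was 14.5 to 19.1 FPKM after si-circ_0000839 and 20.1 to 25.2 in NC, nearly all of it LUM (15.8 ± 2.40 against 22.5 ± 2.53), with COL1A2 and DCN at no more than 1 read. COL1A1 (0.565 ± 0.0600 against 0.370 ± 0.0571 FPKM) and PDGFRB (0.197 ± 0.0548 against 0.136 ± 0.0145) lay the other way, both without overlap and too low to be tested. The 5 leukocyte markers summed to at most 0.0562 FPKM, with PTPRC and CD3E at 0 reads, and the 4 endothelial ones to at most 0.153. Whether the LUM difference has a part in any result below was not tested. Of 10674 tested genes, 14 (0.131%) passed a Benjamini-Hochberg adjusted p of 0.05 in limma as higher after si-circ_0000839 and 27 (0.253%) as lower.

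All 10 genes were transcribed in TPC1, over a 55.4-fold range of FPKM. The low end, ANAPC10, rests on 29 to 46 reads per library and shares exons with other genes, as given below. Whether reads on shared exons bear on its level was not tested. The coactivator gene FZR1 led with a mean of 24.1 FPKM over the 6 libraries, and no other member reached its lowest library (20.9). Next came CDC26 at 12.9, CDC16 at 12.7 and ANAPC5 at 12.0 FPKM, neighbours whose libraries overlapped. CDC23 followed at 9.47, clear of ANAPC5 above it and of ANAPC7 (7.50) below it. ANAPC7 overlapped CDC27 (5.56), and CDC27 overlapped ANAPC1 (4.07). ANAPC4 at 1.27 and ANAPC10 at 0.435 FPKM stood lowest, each apart from its neighbours. The 4 TPR subunit genes, partners in 1 assembly, thus spanned 5.56 to 12.7 FPKM. The summed level of the 10 genes was 87.8 to 92.1 FPKM after si-circ_0000839 and 87.3 to 94.7 in NC, ranges that overlap.

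**Figure D1:**
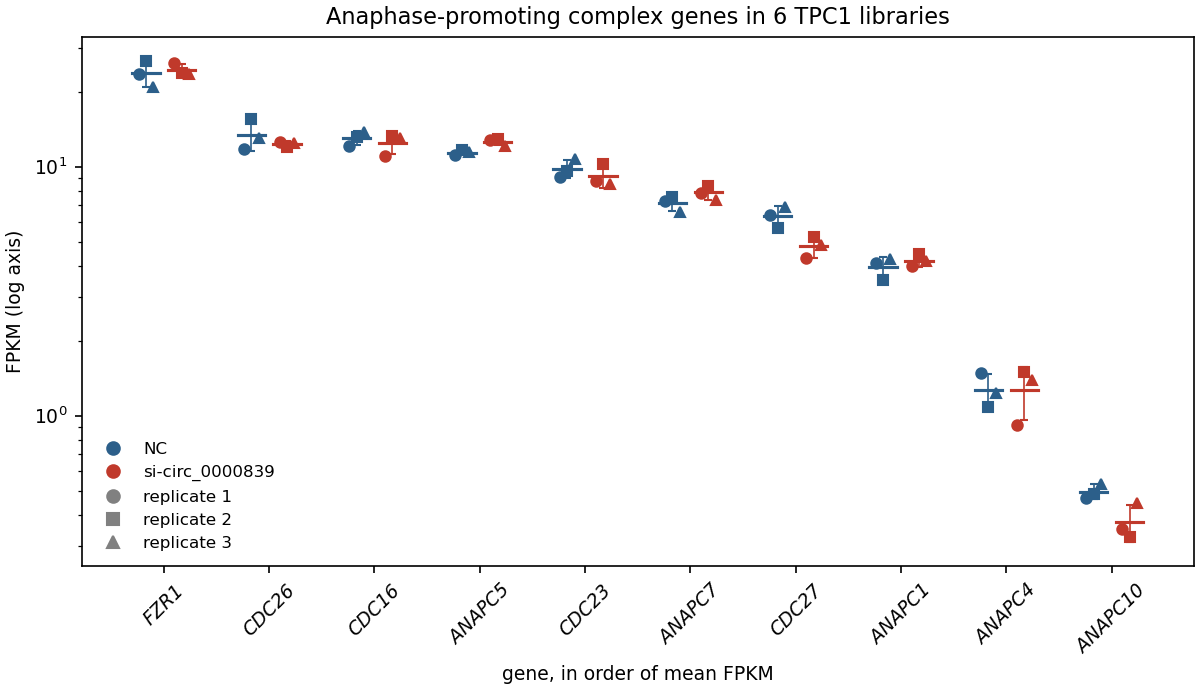
FPKM (log axis) of the 10 genes in each library, in order of mean FPKM; symbols are replicates, horizontal lines group means, bars SD (n = 3), blue NC and red si-circ_0000839. FZR1 is highest and ANAPC10 lowest, and the groups separate for CDC27 and ANAPC10 (lower after si-circ_0000839) and, narrowly, for ANAPC5 (higher).

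The denominator of FPKM bears on this order. Each gene length in the table equals the union of all annotated exons in GENCODE release 29, and the longest coding sequence filled only 12.3% (ANAPC10) to 47.0% (CDC16) of it. ANAPC10 was spread over 4522 bases for a coding sequence of 555, and ANAPC5 over 12304 bases for 2265. Levels of genes with many long untranslated or intron-retaining exons are thus divided by more bases than the main messenger holds. The fold in FPKM of 1 gene between groups is not touched by this. Gene length does bear on whether a gene reaches the minimum for testing, and on its change in log2(FPKM + 1).

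After si-circ_0000839 none of the 9 tested members passed the adjusted threshold in limma. Among them CDC27 lay farthest from its NC level, at 75.7% of it, and the untested ANAPC10 was at 75.3%. The median change in log2(FPKM + 1) was -0.01 over the 9 members and 0.01 over all tested genes, with 4 members above 0 and 5 below. At an unadjusted p under 0.05 there was 1 member lower (CDC27) and 0 higher, where 6.31% of all tested genes were lower and 6.31% higher. Groups did not overlap for CDC27 downward and for ANAPC5 upward, 1 tested member each way, against 7.55% of all tested genes downward and 10.6% upward. These shares of the members are close to the background, given 9 genes. With limma's voom on the recovered reads, 0 members passed as well.

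**Figure D2:**
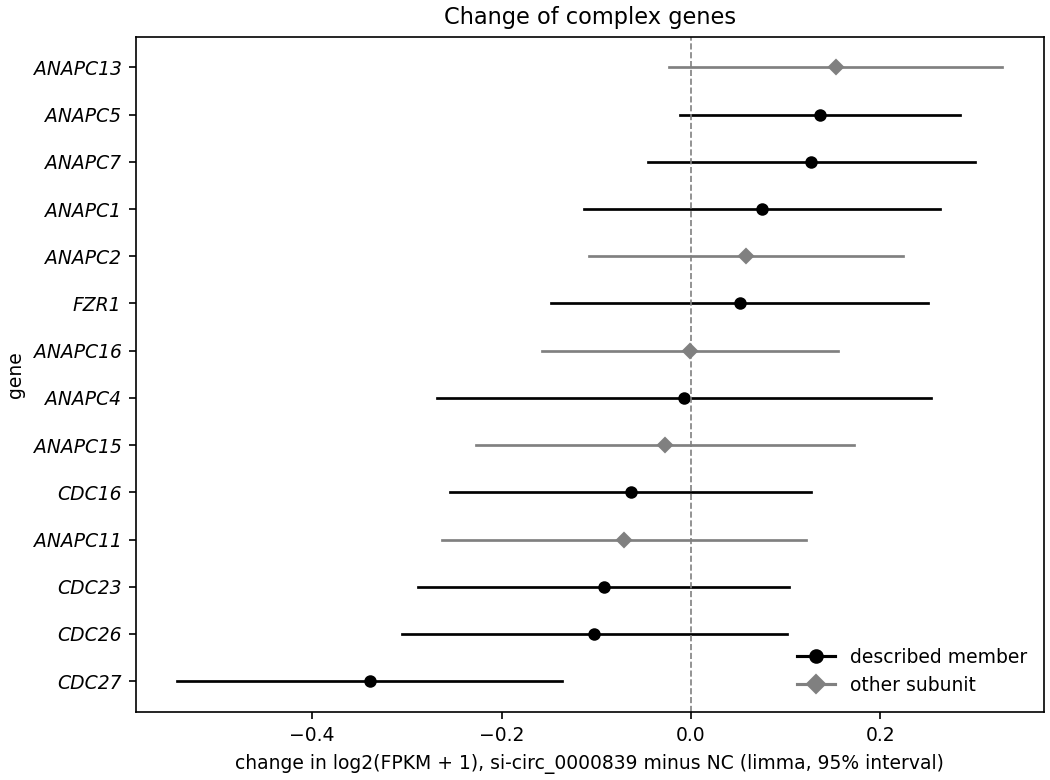
Change in log2(FPKM + 1), si-circ_0000839 minus NC, with the 95% interval of limma, for the 9 tested members (black circles) and 5 other subunits (grey diamonds). The interval of CDC27 (-0.54 to -0.14) lies below 0 and every other interval includes 0.

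CDC27 (ENSG00000004897) lies on chromosome 17 from 47117703 to 47189422, minus strand, GRCh38. It was at 4.28, 5.24 and 4.84 FPKM in si-circ_0000839 replicates 1 to 3 and at 6.42, 5.64 and 6.90 in NC replicates 1 to 3. Every si-circ_0000839 library lay below every NC library, with the narrowest gap between si-circ_0000839 replicate 2 and NC replicate 2. The means were 4.79 ± 0.480 and 6.32 ± 0.636 FPKM (SD, n = 3), on 536 to 897 reads per library. The log2 change was -0.34 (SE 0.09, 95% interval -0.54 to -0.14, adjusted p = 0.176 in limma), which missed the threshold.

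The GC content of CDC27 was low. Its longest transcript had 36.6% GC, at percentile 3.23 of the tested genes, and libraries differed along GC content. In the lowest of 5 equal groups of tested genes by GC content (23.08% to 41.65%), si-circ_0000839 replicates 1 to 3 lay at -0.14, 0.05 and -0.0038 and NC replicates 1 to 3 at 0.07, -0.05 and 0.08 on the log2 scale from each gene's own mean. The groups overlapped there, and the median change of that group was -0.05. With a trend on GC content and length removed from each library, the CDC27 change was -0.27 (SE 0.05) and passed the threshold at adjusted p = 0.0455. In that setting 220 of 10670 genes passed, against 41 of 10674 as reported. In the other 18 settings CDC27 did not pass, and its change stayed between -0.41 and -0.27. Without si-circ_0000839 replicate 1 and NC replicate 2, the lowest library of each arm among those low-GC genes, it was -0.34 (adjusted p = 0.103).

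**Figure D3:**
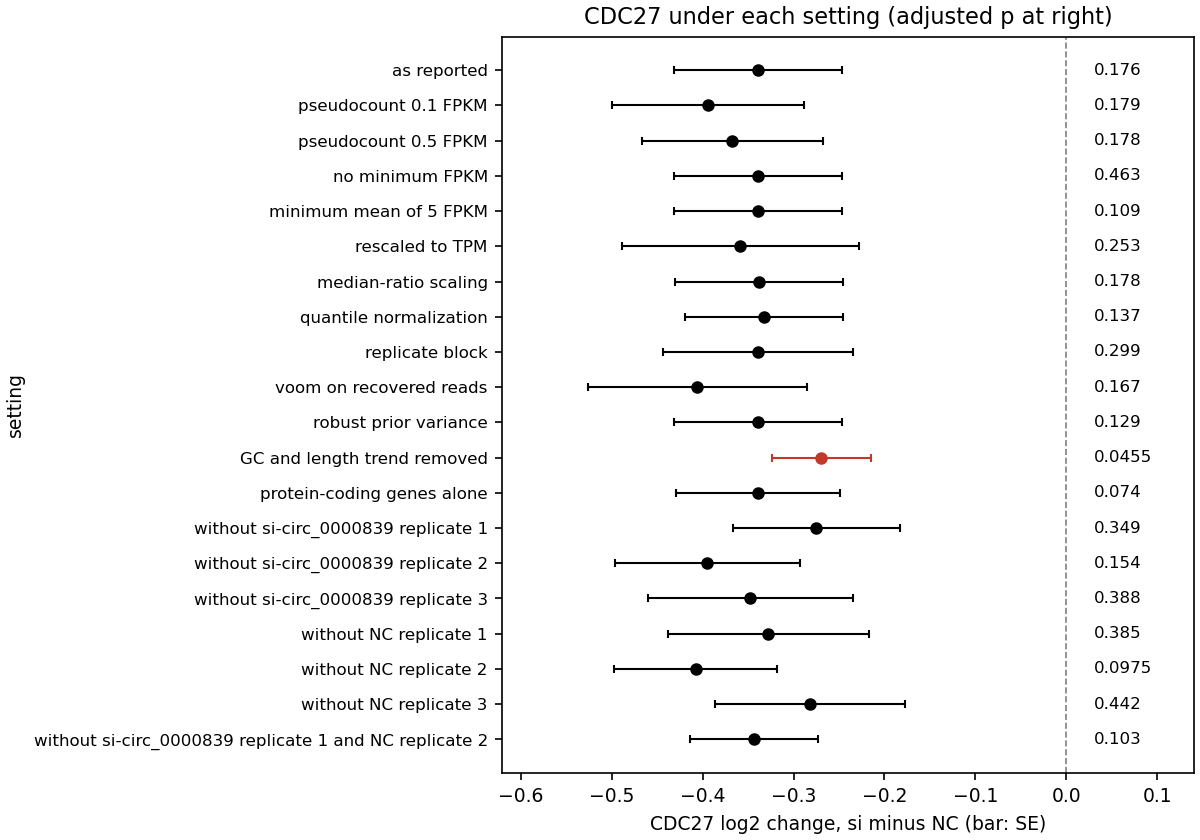
Log2 change of CDC27, si-circ_0000839 minus NC (bars SE), as reported and under each alternative setting, with the adjusted p at the right. All points lie below 0, and 1 (red, GC and length trend removed) passes an adjusted p of 0.05.

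The other TPR subunit genes lay closer to their NC level. CDC16, the subunit held in shape by CDC26, was at 11.02, 13.29 and 13.01 FPKM after si-circ_0000839 and at 12.11, 13.14 and 13.82 in NC. The groups overlapped, with a log2 change of -0.06 (95% interval -0.25 to 0.13). CDC23 was at 8.73, 10.2 and 8.48 FPKM after si-circ_0000839 and at 9.06, 9.62 and 10.7 in NC, also overlapping (log2 change -0.09, interval -0.29 to 0.10). ANAPC7, the TPR subunit at the outer end of the arc, was at 7.86, 8.38 and 7.37 FPKM against 7.26, 7.52 and 6.60. Its change had the opposite sign, 0.13 (interval -0.05 to 0.30), and only NC replicate 2 reached into the range after si-circ_0000839. CDC26 was at 12.58, 12.03 and 12.44 FPKM after si-circ_0000839 and 11.76, 15.45 and 13.01 in NC, where NC replicate 2 stood above the rest (log2 change -0.10, interval -0.31 to 0.10). Adjusted p in limma was 0.551 to 0.808 for these 4 genes.

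Ratios within a library do not depend on the scaling of its total, but they carry the trend along GC content, in which CDC27 (percentile 3.23) lies far from CDC23 (26.2), CDC16 (36.0) and ANAPC7 (45.8). The ratios were not computed with that trend removed. The changes of single genes with it removed were -0.27 for CDC27, -0.08 for CDC23, -0.07 for CDC16 and 0.09 for ANAPC7. CDC27 to ANAPC7 was 0.545, 0.625 and 0.657 after si-circ_0000839 and 0.885, 0.751 and 1.05 in NC. The highest ratio after si-circ_0000839 was thus below the lowest in NC. CDC27 to CDC16 was 0.385 ± 0.0115 against 0.486 ± 0.0517, and CDC27 to CDC23 was 0.525 ± 0.0411 against 0.647 ± 0.0611 (SD, n = 3). In each of these 3 ratios the groups did not overlap (p = 0.1 in a two-sided exact permutation test, adjusted p = 0.133 over 4 ratios). With 3 libraries against 3 no smaller p is possible, and a threshold of 0.05 cannot be passed. These 3 ratios share CDC27, whose own groups did not overlap, so they are not 3 separate results. The share of other gene pairs without overlap was not computed. CDC26 to CDC16, a subunit and its binding partner, was 1.001 ± 0.124 against 1.03 ± 0.128 with overlapping groups (exact permutation p = 0.6).

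**Figure D4:**
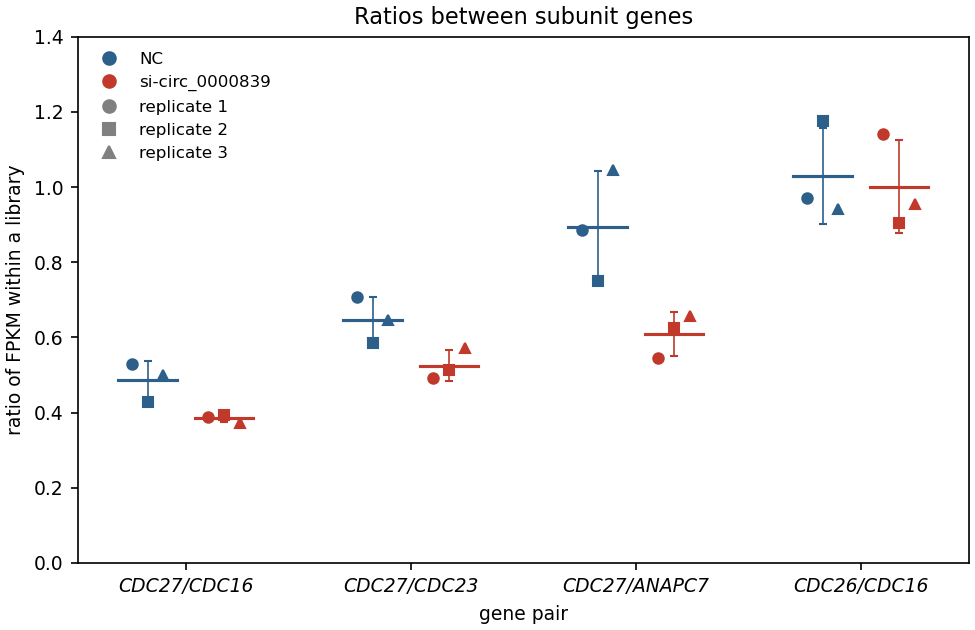
Ratio of FPKM of gene pairs within each library; symbols are replicates, lines group means, bars SD (n = 3), blue NC and red si-circ_0000839. The 3 ratios with CDC27 are lower in every si-circ_0000839 library than in every NC library, and CDC26 to CDC16 overlaps.

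The stretches ahead of the 4 TPR genes are shown because these genes serve 1 assembly and include CDC27. They are the parts of the 250 bases before the RefSeq start (GRCh38.p14) that lie outside annotated exons, written 5′ to 3′ on the strand of the gene. Capitals mark CCAAT or its reverse ATTGG, the letters of the NF-Y box found in many mitotic promoters, and TTTGAA or its reverse TTCAAA, the letters of the cell cycle homology region (CHR). The positions are chr17:47189423-47189545 for CDC27 (minus strand), chr13:114234647-114234886 for CDC16 (plus strand), chr5:138213344-138213573 for CDC23 (minus strand) and chr12:110403731-110403958 for ANAPC7 (minus strand).
CDC27: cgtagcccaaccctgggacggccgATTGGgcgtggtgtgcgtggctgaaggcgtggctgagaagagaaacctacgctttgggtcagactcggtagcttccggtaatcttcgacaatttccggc
CDC16: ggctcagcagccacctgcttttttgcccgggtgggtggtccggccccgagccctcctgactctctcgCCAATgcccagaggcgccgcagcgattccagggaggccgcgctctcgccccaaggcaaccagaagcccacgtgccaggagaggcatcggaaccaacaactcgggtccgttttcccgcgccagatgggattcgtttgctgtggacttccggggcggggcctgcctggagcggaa
CDC23: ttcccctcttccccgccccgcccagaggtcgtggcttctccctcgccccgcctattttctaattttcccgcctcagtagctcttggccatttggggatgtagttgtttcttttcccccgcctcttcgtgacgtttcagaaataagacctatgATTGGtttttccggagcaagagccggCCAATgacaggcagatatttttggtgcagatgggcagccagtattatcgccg
ANAPC7: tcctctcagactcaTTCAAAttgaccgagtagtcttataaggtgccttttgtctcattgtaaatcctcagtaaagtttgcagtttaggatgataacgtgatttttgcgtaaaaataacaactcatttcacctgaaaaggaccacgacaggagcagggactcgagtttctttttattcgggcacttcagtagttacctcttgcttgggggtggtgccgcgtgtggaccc

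CDC27, CDC16 and CDC23 hold the CCAAT letters in these stretches and ANAPC7 holds the CHR letters. Over the 250 bases, with both strands searched, 4 of the 10 members (40%) held CCAAT, against 33% of 27305 promoters of the same length. TTTGAA was in 2 of 10 (20%), ANAPC7 and FZR1, against 13.6%. Of the 25 promoters found for substrates of the complex listed below, 19 (76%) held CCAAT and 5 (20%) TTTGAA. A match describes letters only.

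The genes whose pattern over the 6 libraries was most like that of CDC27 were picked by the root-mean-square difference of deviations from each gene's mean log2(FPKM + 1), among 7208 other protein-coding genes averaging 3 FPKM or more. They were STT3B (0.0198), a catalytic subunit of the oligosaccharyltransferase, CAB39 (0.0284), a scaffold of the kinase LKB1, ADD3 (0.0299), an adducin of the membrane skeleton, DEPTOR (0.0319), an inhibitor of mTOR, and FERMT2 (0.0350), the integrin activator kindlin-2. The median difference over the 7208 genes was 0.232. None encodes a subunit of the complex. In the order named, their GC content was 41.53%, 41.85%, 39.64%, 45.66% and 36.31%, where the lowest GC group above ended at 41.65%. Whether GC content has a part in the likeness was not tested. STT3B was at 17.4, 20.8 and 19.2 FPKM after si-circ_0000839 and 25.8, 22.5 and 26.5 in NC. All 5 genes had the same order of libraries as CDC27. They were picked for this pattern, so the shared order is no separate result. None of the 5 passed the threshold in limma (adjusted p 0.117 to 0.229).

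Of the platform genes, ANAPC5 differed most. ANAPC5 (chromosome 12, 121308245 to 121399896, minus strand) was at 12.8, 12.9 and 12.1 FPKM after si-circ_0000839 and at 11.1, 11.6 and 11.4 in NC. All 3 si-circ_0000839 libraries lay above all 3 NC libraries, on 2604 to 3132 reads. The log2 change was 0.14 (SE 0.07, 95% interval -0.01 to 0.28, adjusted p = 0.438 in limma). ANAPC1, the largest scaffold subunit, was at 3.98, 4.44 and 4.16 FPKM against 4.08, 3.49 and 4.24, with NC replicate 2 lowest and the other 5 libraries close together (log2 change 0.07, interval -0.11 to 0.26). ANAPC4 was at 0.917, 1.49 and 1.38 FPKM against 1.49, 1.09 and 1.23, so that both extremes were within the si-circ_0000839 group. Its log2 change of -0.01 (interval -0.27 to 0.25) had no stable sign: it was 0.0026 after rescaling to TPM and 0.02 after quantile normalization. ANAPC4 was also low in GC content, at 36.6%, and si-circ_0000839 replicate 1 and NC replicate 2 were its lowest libraries.

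On the substrate side, the gene for the receptor subunit ANAPC10 had few reads. ANAPC10 (chromosome 4, 144831908 to 145098541, minus strand) had 29, 29 and 37 reads after si-circ_0000839 and 41, 40 and 46 in NC. In FPKM these were 0.350, 0.326 and 0.445 against 0.467, 0.487 and 0.534, so the groups did not overlap. The means were 0.374 ± 0.0627 and 0.496 ± 0.0345 FPKM (SD, n = 3), below the minimum for testing. With no minimum its log2(FPKM + 1) change was -0.12 (SE 0.06, adjusted p = 0.666 in limma), on a scale that understates changes of such low values. ANAPC10 was also low in GC content, at 37.6% in its longest transcript (percentile 5.49 of the tested genes). Of its 4522 exonic bases 1020 are also exons of AC098588.1 on the same strand, which had 0 reads in every library, and how reads on shared exons were assigned is not given in the sources used here. FZR1 (chromosome 19, 3506273 to 3538330, plus strand), the G1 coactivator, was at 26.0, 23.8 and 23.6 FPKM after si-circ_0000839 and 23.6, 26.6 and 20.9 in NC. The NC libraries enclosed the others, and the log2 change was 0.05 (interval -0.15 to 0.25). FZR1 has 64.0% GC, at percentile 94.6, and its highest libraries, NC replicate 2 and si-circ_0000839 replicate 1, were also the highest over the group of genes richest in GC (0.08 and 0.11).

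The remaining subunits gave a like picture, with 0 of 5 passing the threshold. The cullin-like subunit ANAPC2 was at 16.9 ± 1.23 FPKM after si-circ_0000839 and 16.2 ± 0.759 in NC, and its RING partner ANAPC11 at 27.3 ± 1.48 and 28.8 ± 3.27. ANAPC13, a small subunit on the TPR arc, had the smallest p of the 5, at 24.4 ± 1.42 against 21.9 ± 1.85 (SD, n = 3; adjusted p = 0.466 in limma). In the cullin-RING ligases, a related family of 14 subunit genes, 0 passed, the median change was -0.02, and CUL5 had the smallest p, at 1.36 ± 0.0591 against 1.68 ± 0.328 FPKM. SKP1, the adaptor of F-box proteins, was at 8.36 ± 0.401 against 9.06 ± 0.322, and the scaffold CUL4A at 12.1 ± 0.422 against 11.6 ± 0.376.

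Genes that work with the complex were mostly below their NC level, none past the threshold. Of 11 tested genes for the coactivator CDC20, ubiquitin-conjugating enzymes, inhibitors and checkpoint proteins, 9 were below 0 and 2 above, with a median of -0.07, where 5145 of all 10674 tested genes were below 0 and 51.8% above. Without si-circ_0000839 replicate 1 the counts were 6 below and 5 above. With the GC and length trend removed they were 7 below and 4 above, and the median was -0.01. UBE2S, which extends ubiquitin chains on the complex, was at 133, 122 and 128 FPKM after si-circ_0000839 and 150, 179 and 148 in NC. The groups did not overlap, with NC replicate 2 highest (log2 change -0.32, SE 0.09, adjusted p = 0.176 in limma). UBE2S passed the threshold after rescaling to TPM, after quantile normalization, with voom, and with the GC and length trend removed. CDC20 was at 228, 211 and 215 FPKM against 234, 291 and 230. UBE2C, which starts the chains, was at 180, 179 and 173 against 198, 220 and 183. In both cases the groups did not overlap (adjusted p = 0.416 and 0.420 in limma). Of the 11 genes 4 lay without overlap downward, against 7.55% of all tested genes, and 1 (TRIP13) upward, against 10.6%. The list was chosen with earlier results of these data known, so its direction is not independent evidence. The summed level of this list was 632 to 656 FPKM after si-circ_0000839 and 684 to 810 in NC, where the top value was NC replicate 2. That sum was led by CDC20, UBE2C and UBE2S, at means of 235, 189 and 143 FPKM over the 6 libraries.

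Of 27 substrates of the complex, all tested, 21 were below 0, 6 above and 0 past the threshold in either direction. Over all tested genes 51.8% were above 0. The median change of the substrates was -0.11. HMMR, a spindle protein, had the smallest p, at 2.272, 2.997 and 2.775 FPKM after si-circ_0000839 and 4.125, 3.270 and 3.536 in NC (log2 change -0.34, SE 0.10, adjusted p = 0.218 in limma). ID2, an inhibitor of helix-loop-helix factors, was at 32.3 ± 1.74 against 36.8 ± 1.29 FPKM. SKP2, an F-box protein of the G1/S transition, lay the other way, at 8.40 ± 0.619 against 7.19 ± 0.870 (SD, n = 3). The summed level was 772 to 789 FPKM after si-circ_0000839 and 818 to 876 in NC, without overlap. CCNB1 and TK1, at means of 119 and 107 FPKM over the 6 libraries, led this sum. Without si-circ_0000839 replicate 1 and NC replicate 2 the counts were 19 below and 8 above, with a median of -0.05. In bulk RNA, fewer cells in mitosis and less RNA per cell cannot be told apart. The list was chosen with earlier results on mitotic genes in these libraries known, so its direction is not independent evidence.

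**Figure D5:**
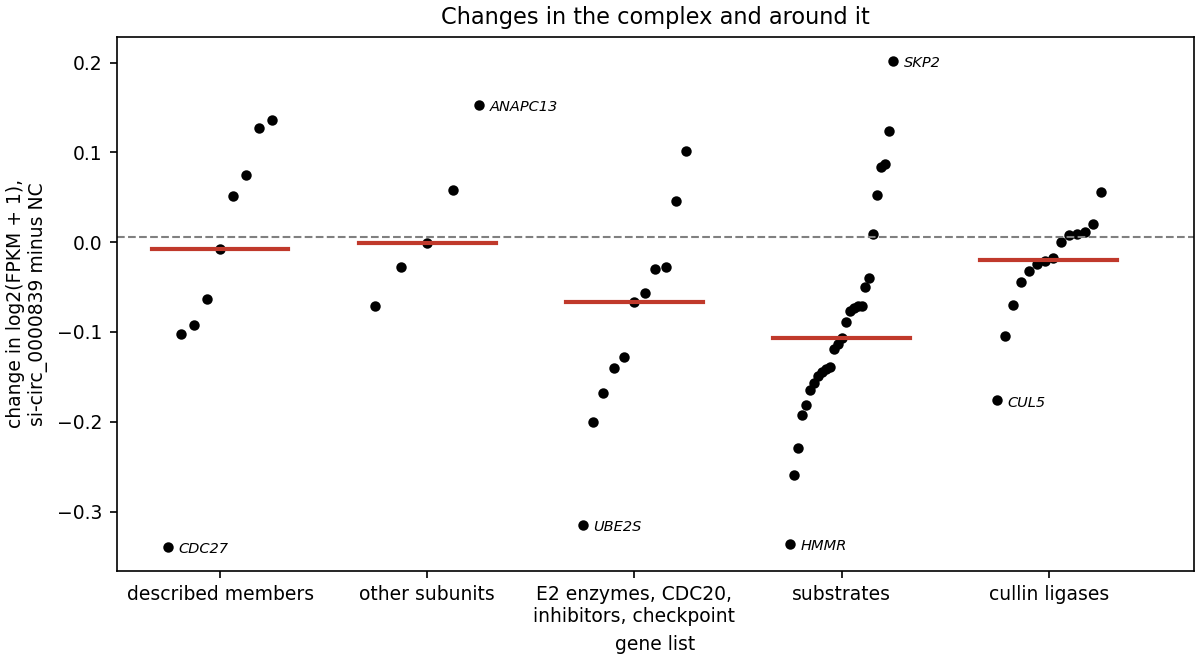
Change in log2(FPKM + 1), si-circ_0000839 minus NC, of each tested gene (points) of 5 lists, with list medians (red lines) and the median of all tested genes (dashed). The medians are -0.01 for the described members, -0.11 for substrates and -0.02 for cullin ligases; CDC27 lies apart from the other members.

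Some members share sequence or position with other genes. Annotated pseudogenes, found by symbol, were assigned almost no reads: CDC27P1, CDC27P2, CDC27P3 and ANAPC10P1 had 0 reads in every library and ANAPC1P1 at most 3. Whether reads that map to more than 1 place were lost from the members was not examined. The strand setting of the counting is not given in the sources used here, so reads where opposite genes overlap cannot be assigned with certainty. ANAPC10 shares 469 exonic bases with ABCE1, head to head, and CDC26 shares 208 with PRPF4 in the same way. CDC23 and FZR1 share 68 and 70 exonic bases at their ends with KIF20A and MFSD12. On its own strand ANAPC7 shares 683 exonic bases with AC144548.1, and ANAPC1 shares 327 with AC017002.6. Head-to-head protein-coding neighbours with starts within 1000 bases were found for 3 of the 10 members (30%), against 18.6% of 9666 tested protein-coding genes. ABCE1 was at 7.91 ± 0.953 FPKM after si-circ_0000839 and 8.02 ± 0.692 in NC, and PRPF4 at 21.1 ± 1.17 and 19.6 ± 0.707. The third neighbour, RNF34, faces the outermost annotated start of ANAPC5, and was at 11.69, 11.85 and 11.91 FPKM against 10.54, 10.29 and 10.44. RNF34 thus lay higher without overlap, like ANAPC5, though it missed the threshold (log2 change 0.17, SE 0.06, adjusted p = 0.325 in limma).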

How the data were processed

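The table the authors deposited holds FPKM for 58735 genes in 6 libraries, with lengths, positions and biotypes, per the file headers. The submitters' processing notes list HISAT2 (2.0.5) and featureCounts (1.5.0-p3). For strand setting, build and scaling total, the value is not given in the sources used here. All 58735 genes matched GENCODE release 29 in position (GRCh38). Read numbers were recovered from FPKM times length divided by each library's step: 100% of values above 0 came out whole within 0.01. The scaling totals given by these steps were 0.958 (NC replicate 2) to 1.02 (NC replicate 3) times the recovered reads. Groups and replicate numbers came from sample titles.

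The 10674 genes averaging 1 FPKM or more were tested with limma 3.58.1 in R 4.3.3 on log2(FPKM + 1), trended prior variance, group as the only term, two-sided, adjusted over all tested genes. Folds and levels are on the FPKM scale. Ratios within a library were compared with an exact permutation test. The limma test was checked on simulated reads, with folds larger than that of CDC27 and no trend along GC content. That check does not cover smaller changes or such a trend. Members and lists were chosen with earlier results of these data known. Named genes are the 10 members, the called genes and those with the 3 smallest p of each list (not all described), markers, overlapping genes and pseudogenes, and the 5 genes most like CDC27. RNF34 came from the search for head-to-head neighbours and SKP2 was named after its value was seen. GC content is that of the longest transcript. Promoter letters were matched to the first RefSeq window of each gene.

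Alternatives were other pseudocounts (0.1 and 0.5), no minimum or 5 FPKM, TPM, median-ratio and quantile scaling, a replicate block, voom, a robust prior, removal of spline trends along GC content and gene length (5 degrees of freedom), protein-coding genes alone, and libraries left out. Counts of the partner and substrate lists under these settings were added after the data were seen.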

Additional observations from a re-analysis of the deposited data

How the results depend on the processing

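Over the 19 alternative settings, 160 values of the members kept their direction and side of the threshold. CDC27 passed only with the GC and length trend removed, which made the count of members called 1 in place of 0. Uncalled members turned sign 9 times: ANAPC4 was 0.0026 after rescaling to TPM, 0.025 after quantile normalization, 0.061 with the GC and length trend removed, 0.11 without si-circ_0000839 replicate 1, 0.060 without NC replicate 1 and 0.049 with NC replicate 2 and si-circ_0000839 replicate 1 both left out (range with 1 library left out -0.082 to 0.11). CDC16 was 0.015 without si-circ_0000839 replicate 1 (range -0.11 to 0.015) and 0.022 without both libraries, and FZR1 was -0.033 without NC replicate 3 (range -0.033 to 0.13). The log2 difference of CDC26 to CDC16, -0.04, ranged from -0.14 to 0.059 with 1 library left out. The causes were not tested.

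Over all genes 41 were called. The count was 4 with no minimum (26557 genes tested), 68 at a minimum of 5 FPKM, 63 after quantile normalization, 84 with voom, 66 with a robust prior, 125 among protein-coding genes alone, 220 with the GC and length trend removed and 26 without both libraries. Leaving out 1 library gave 20 (without NC replicate 3) to 38 (without si-circ_0000839 replicate 2). The share of higher calls was 34.1% as reported, 58.2% in TPM, 46.0% after quantile normalization and 50.4% with the trend removed, 55.9% with voom, 48.5% at 5 FPKM, 28.6% with the replicate block, and 22.7% (without si-circ_0000839 replicate 3) to 47.4% (without si-circ_0000839 replicate 2) with 1 library left out.

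The replicate block gave 35 calls over all genes and 0 among the members, with CDC27 at adjusted p = 0.299 in limma. Deviations of same-numbered libraries correlated at -0.149, -0.289 and 0.150 across genes, so the numbers were not taken as pairs; of the si-circ_0000839 libraries, replicates 1 and 2 correlated best with another number. ANAPC10, at 29 to 46 reads per library, was tested only with no minimum. Whether depth or reads on shared exons have a part in its low count was not tested.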
